A study of Mus musculus with 18 samples.

Results

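The cytosolic ribosomal protein genes encode the proteins of the ribosome that translates nuclear mRNA outside mitochondria. Members were the rows of the count table whose mouse symbol is Rpl or Rps followed by digits and at most a final a or x, or is Rplp0, Rplp1 or Rplp2, with a count above 0 in every library. This gave 75 of the 22063 genes in the table: 43 Rpl genes of the large subunit, 29 Rps genes of the small subunit and the 3 stalk genes. All 75 matching symbols were counted in all 18 libraries and all 75 passed the filter on low counts, so no member was lost.

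The samples were 18 libraries of mouse hippocampus, a brain region of spatial memory, from a study of disorientation produced by rotation. The labels give no strain, genotype, sex or age, and no label ties a sample to an animal of its own, so p-values speak only of the spread among the 18 samples. D-V (n = 5) was rotational motion along more than a single direction with the eyes covered, which the labels call the Coriolis illusion. D+V (n = 5) was the same kind of motion with the eyes uncovered. S-V (n = 5) was motion in a single direction with the eyes covered. Control (n = 3) is named only as a blank control. In all groups the tissue was collected straight after the stimulus. RNA was selected on oligo(dT) beads before library preparation.

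Ribosomal proteins assemble with ribosomal RNA in the nucleolus, and the subunits are exported and joined on mRNA in the cytosol. Their mRNAs are short and abundant and typically start with a C followed by a run of pyrimidines, called the TOP start, through which mTOR signalling controls their translation more than their amount. Neurons also hold these mRNAs in dendrites and axons. The counts analysed here measure the amount of mRNA and say nothing about its translation.

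The start sites of the members that the comparisons below turn on are shown because a TOP start is typical of the family's mRNAs. Each line is 50 bases of the RefSeq GRCm38.p6 assembly, read 5′ to 3′ on the gene's strand, with the annotated start site as the 26th base. Capitals mark the unbroken run of C and T that spans the annotated start, within these 50 bases.
Rpl34: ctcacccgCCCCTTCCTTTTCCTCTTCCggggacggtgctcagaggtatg
Rpl35a: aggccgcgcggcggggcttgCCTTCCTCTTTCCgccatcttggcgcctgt
Rpl39: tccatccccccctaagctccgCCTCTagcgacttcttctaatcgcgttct
Rpl14: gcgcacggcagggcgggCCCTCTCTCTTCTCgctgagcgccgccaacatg
Rpl15: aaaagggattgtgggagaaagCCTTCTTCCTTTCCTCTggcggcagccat
Rps15a: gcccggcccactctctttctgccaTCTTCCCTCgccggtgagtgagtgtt
Rpl38: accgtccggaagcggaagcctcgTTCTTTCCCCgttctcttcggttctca
Rpl5: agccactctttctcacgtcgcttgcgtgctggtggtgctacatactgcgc
Rpl10: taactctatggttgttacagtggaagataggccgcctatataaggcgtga

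In that order the windows lie at chr3:130730313-130730362 on the minus strand, chr16:33056457-33056506 on the plus strand, chrX:37085198-37085247 on the minus strand, chr9:120571492-120571541 on the plus strand, chr14:18270962-18271011 on the minus strand, chr7:118116123-118116172 on the minus strand, chr11:114668555-114668604 on the plus strand, chr5:107900503-107900552 on the plus strand and chrX:74270791-74270840 on the plus strand. Where a gene had several annotated starts, the window with the longest run is shown. Rpl34 and Rpl15 carry long runs across their start, while Rpl5 and Rpl10 have no run over the annotated start base.

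Promoter windows, from 250 bases before to 50 bases after a start, were found for 55 members with 65 annotated starts, and 20 members had none. A C at the annotated start followed by at least 4 bases of C or T stood at 13 of the 65 starts (20.0%), against 823 of all 32851 promoters (2.51%). Among the windows shown, Rpl35a, Rpl14, Rpl15, Rps15a and Rpl38 had such a start and Rpl34, Rpl39, Rpl5 and Rpl10 did not. A run of at least 8 bases of C or T within 25 bases of the start was found at 31 of the 65 starts (47.7%), against 19.7% of all promoters. The motif CCGGAAG, searched on both strands and so also as CTTCCGG, which can overlap a run of pyrimidines, was found in 23 of the 65 windows (35.4%), against 8.86% of all promoters. It can be read in the Rpl38 window above, upstream of the start, and as CTTCCGG in the Rpl34 window, across the start. These matches describe the letters of the windows, and an annotated start that is a few bases off would move a C from position.

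Library totals were 15.39 to 21.43 M estimated counts in D-V, 15.03 to 25.31 M in D+V, 15.56 to 24.28 M in S-V and 20.44 to 22.17 M in Control, and member counts ran from 260 to 17590 in a library. All 14 hippocampal markers were counted in every library, with a summed level of 1465 to 1930 CPM, the count relative to the TMM-scaled size of the library. Markers of choroid plexus, a secretory epithelium next to the hippocampus, summed to 145 to 11100 CPM, with 13 of 14 counted in every library. They were highest in 5 libraries: D-V 3 and 4, D+V 2, and S-V 2 and 4. Member medians without these 5 are given where they moved by over 1.5 times, and member counts are given for some comparisons.

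As a share of all counts the members made up 1.3%, 1.43%, 1.54%, 1.63% and 1.38% in D-V libraries 1 to 5. In D+V libraries 1 to 5 the shares were 1.79%, 1.59%, 1.34%, 1.22% and 1.43%, in S-V 1.76%, 1.5%, 1.62%, 1.55% and 1.67%, and in Control 1.64%, 1.57% and 1.36%. The means were 1.46% ± 0.131 in D-V, 1.47% ± 0.219 in D+V and 1.62% ± 0.103 in S-V (SD, n = 5 each), against 1.53% ± 0.147 in Control (SD, n = 3). The groups overlapped, and both the highest and the lowest share of the series belonged to D+V. In bulk tissue, fewer cells of a type and less RNA per cell cannot be told apart.

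Per length, the members differed in level by more than an order of magnitude. With the mean CPM divided by the length of the annotated transcript, the median member was at 235 CPM per kb. The highest were Rps15, a protein near the decoding site of the small subunit, at 607 CPM per kb, the stalk protein Rplp1 at 592, Rpl13 at 579, Rps14 of the small subunit platform at 522, Rpl41, the shortest ribosomal protein, at 513, and Rpl3, which reaches toward the peptidyl transferase centre, at 505. The lowest were Rps20 at 22.2 CPM per kb, Rpl39, a small protein of the exit tunnel, at 38.1, Rps28 at 79.1 and Rps16 at 99.9. Rps20 was divided by an annotated transcript of 3706 bases and Rps16 by 1109, against a median of 681 bases over the members. The places of both rest on that annotation. This order is a description with no test.

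The members moved together from library to library. For each gene the log2 CPM in a library was set against the gene's own mean over the 18 libraries, and the median over the 75 members was taken. This member median was −0.24, −0.07, 0.03, 0.12 and −0.13 in D-V libraries 1 to 5. It was 0.25, 0.08, −0.14, −0.34 and −0.03 in D+V, 0.24, 0.00, 0.09, 0.01 and 0.17 in S-V, and 0.10, 0.05 and −0.16 in Control. The group means were −0.06 ± 0.14 in D-V, −0.04 ± 0.22 in D+V and 0.10 ± 0.10 in S-V (SD, n = 5 each), against 0.00 ± 0.13 in Control (SD, n = 3). The spread within groups was as large as the spread over the whole series: the SD of the member median was 0.159 over all 18 libraries and 0.159 within groups.

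**Figure D1:**
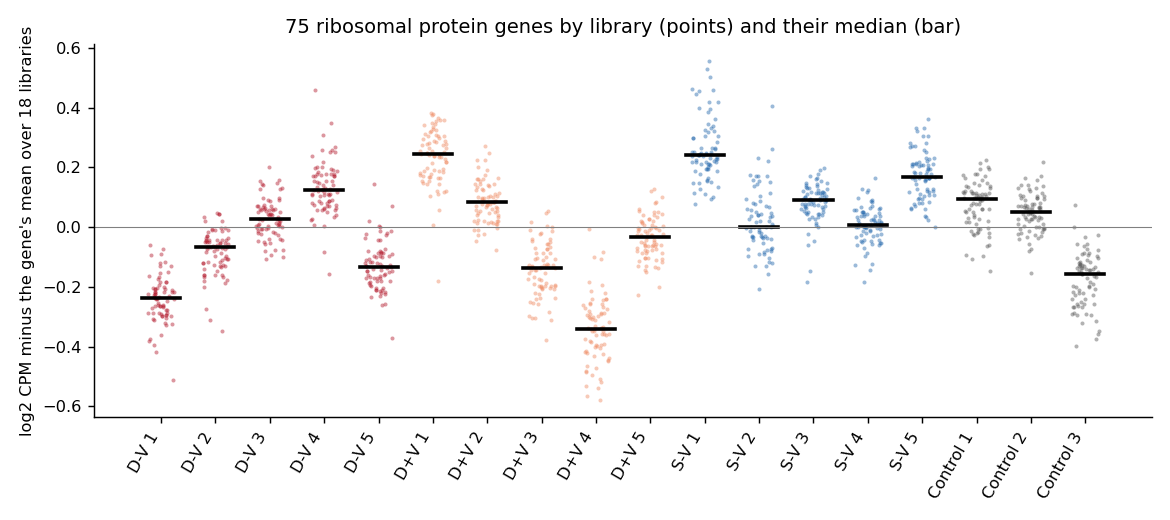
Each point is a ribosomal protein gene in a library, placed by its log2 CPM minus its own mean over the 18 libraries (y axis), and bars are the median of the 75 members. Libraries are ordered D-V, D+V, S-V, Control on the x axis. All 75 points of D+V 4 and of D-V 1 lie below 0 and all 75 points of S-V 1 and of S-V 5 lie above it.

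In single libraries the shared movement covered the whole family. All 75 members were below their own mean in D+V 4 and in D-V 1, and all 75 were above it in S-V 1 and in S-V 5. D+V 4 was the lowest of the 18 libraries for 61 members. D+V 1 was the highest for 37 members and S-V 1 for 30. Large and small subunit genes moved alike, with medians of −0.33 and −0.36 in D+V 4 and of 0.24 and 0.25 in D+V 1.

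Over the 18 libraries the median member had an SD of 0.172 in log2 CPM. With the member median of each library taken off, it was 0.072. Over the 7235 tested genes of the same range of abundance the median SD was 0.136, and over all tested genes it was 0.183. Rps3, at the mRNA entry channel, and Rpl32 kept closest to the member median, each with an SD of 0.030 after it was taken off, followed by Rplp1 at 0.039. The most independent members were Rps29 at 0.208, Rpl10 at 0.196, Rpl39 at 0.161, Rps28 at 0.145 and Rpl38 at 0.144. Rps29 is a small zinc-binding protein of the small subunit, Rpl10 joins the large subunit late in its assembly, and Rpl38 is known in mice for its part in the translation of Hox mRNAs.

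**Figure D2:**
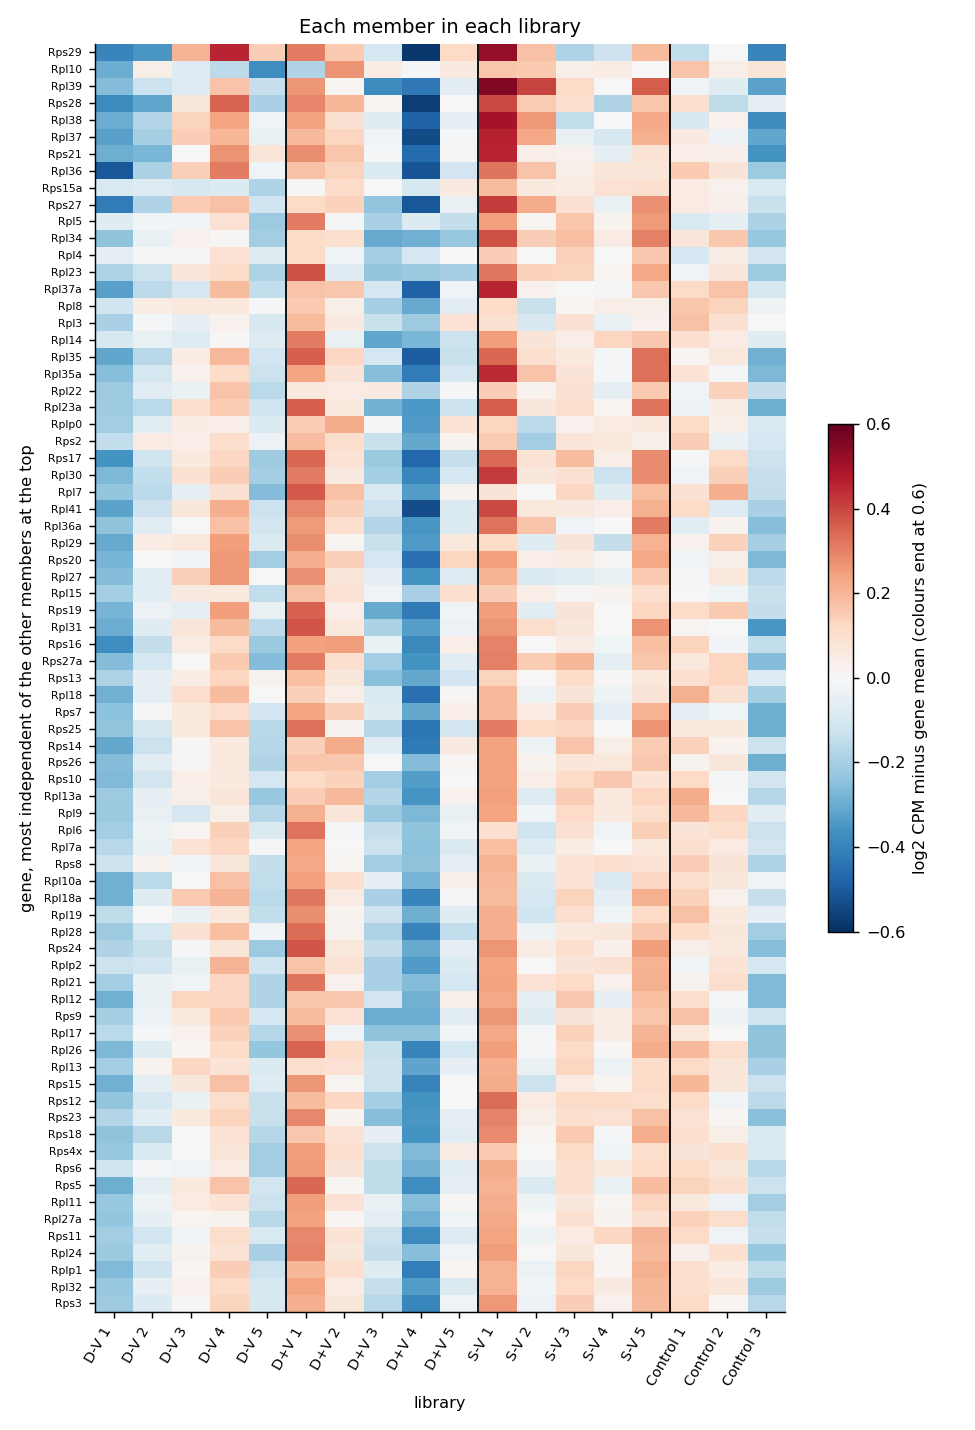
Rows are the 75 members, with those that follow the other members least at the top, columns are the 18 libraries in the order D-V, D+V, S-V, Control, and colour is log2 CPM minus the gene's mean (red above, blue below, ending at 0.6 on either side). The columns of D+V 4 and S-V 1 are of nearly uniform colour, and Rps29, Rpl10 and Rpl39 at the top depart most from the rest.

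Members had a median transcript length of 681 bases, against 2846 over all tested genes, and 74 of the 75 were shorter than that tested median. Their median GC content was 51.8%, against 50.8%. Nuclear-encoded subunits of the respiratory chain and ATP synthase (oxidative phosphorylation, OXPHOS) had library medians of −0.19, −0.03, 0.07, 0.18 and −0.07 in D-V libraries 1 to 5 and of 0.22, 0.00, −0.13, −0.27 and −0.10 in D+V. In S-V they were at 0.18, 0.04, 0.01, 0.02 and 0.13 and in Control at 0.06, 0.06 and −0.16. D+V 4 was lowest and D+V 1 highest, as for the ribosomal proteins.

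A smooth trend of expression on transcript GC content and length was then fitted over all tested genes in each library. At the members it stood at −0.15, −0.06, 0.13, 0.17 and −0.10 in D-V libraries 1 to 5, at 0.17, 0.06, −0.15, −0.25 and −0.13 in D+V, at 0.13, 0.05, 0.02, 0.09 and 0.05 in S-V and at 0.08, 0.05 and −0.16 in Control. Once it was taken out, the member medians were −0.09, 0.00, −0.10, −0.05 and −0.03 in D-V, 0.09, 0.01, 0.01, −0.09 and 0.10 in D+V, 0.11, −0.05, 0.08, −0.08 and 0.12 in S-V and 0.01, −0.01 and −0.01 in Control. The SD of the member median over the 18 libraries was then 0.073 in place of 0.159. The members are among the genes the trend was fitted on, so taking it out can remove part of their own movement. What sets the trend of a library was not tested.

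**Figure D3:**
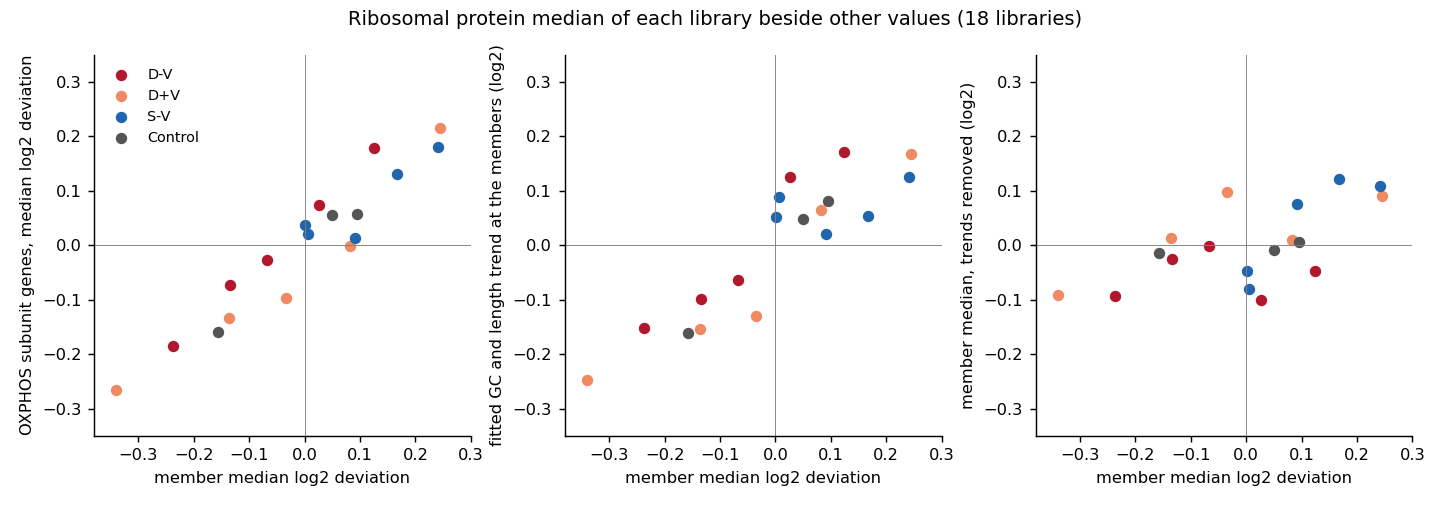
Each point is a library, coloured by group, with the member median log2 deviation on every x axis. The y axes show the OXPHOS median, the fitted GC and length trend at the members, and the member median once that trend was taken out (all log2). The left and middle panels climb with the member median, and in the right panel the values stay between −0.10 and 0.12.

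Groups were compared with edgeR's quasi-likelihood test over 14763 genes with Benjamini-Hochberg adjustment, and a gene was called at an adjusted p under 0.05. In none of the 7 comparisons was a member called. DESeq2 called 0 members as well, where it called 0.0203% (D-V against Control) to 4.95% (D+V against Control) of all genes. Limma voom called 0 members in 6 comparisons, where it called up to 12.7% of all genes (D+V against Control). In D+V against S-V it called 14 of 75 members and 1942 of 14763 genes (13.2%). The 3 comparisons with Control share the same 3 Control libraries, so their values are not independent of each other. Members moved together from library to library, so a count of members is not a count of separate results.

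D-V against Control set the Coriolis condition beside the blank control. Members were at a median log2 fold change of −0.05, against 0.00 over all tested genes, and 21 of 75 were positive, where 51.4% of all tested genes were. Of the members 0 were called (0.0% of all genes), and 1 had an unadjusted p under 0.05, where 6.20% of all genes did. The smallest adjusted p of a member was 0.673. Without the 5 libraries rich in choroid plexus markers 2 members had an unadjusted p under 0.05, where 8.18% of all genes did. The median was −0.12, with 3 members positive, without the 5 libraries rich in choroid plexus markers, −0.12 without Control replicate 3 and 0.01 without Control replicate 1.

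Rpl10 had the smallest p of the members in this comparison. It was at 97.7, 123, 114, 108 and 92.9 CPM in D-V, against 135, 123 and 127 CPM in Control. All 5 D-V libraries were below all 3 Control libraries, though D-V 2 and Control 2 differed by under 1 CPM. It was the 1 member without overlap on the lower side, where 2.37% of all genes had none, and 0 members were without overlap on the higher side, against 2.75% of all genes. The log2 fold change of Rpl10 was −0.26 (SE 0.09, adjusted p 0.673 by edgeR). The next were Rpl9, near the base of the stalk, at −0.19 (SE 0.10) and Rpl3 at −0.15 (SE 0.08). On the positive side Rps29 was at 0.22 (SE 0.20), Rpl38 at 0.12 (SE 0.16) and Rps7 at 0.09 (SE 0.11).

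Rpl10 counts cannot be read alone, because a processed copy of the gene, Rpl10-ps3, has a row of its own in the table. The copy held 2996 to 7495 estimated counts in a library, more than the 1433 to 3268 of Rpl10, and the counting cannot assign reads between near-identical sequences with certainty. Rpl10 took 29.3%, 33.9%, 29.2%, 26.4% and 28.7% of the counts of the pair in D-V, 23.2%, 36.5%, 37.9%, 37.8% and 36.0% in D+V, 30.4%, 35.1%, 30.7%, 32.0% and 29.4% in S-V, and 30.6%, 29.4% and 35.5% in Control. D+V 1 had the lowest share of all libraries, and the other 4 D+V libraries had the highest 4.

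Summed over both rows, the pair was at 364 ± 36.1 CPM in D-V, 369 ± 58.0 CPM in D+V and 405 ± 24.4 CPM in S-V (SD, n = 5 each), against 406 ± 43.8 CPM in Control (SD, n = 3). The SD after the member median was taken off was 0.0632 for the sum and 0.196 for Rpl10 alone, so the sum followed the other members about as closely as the median member did. The copy itself was at a log2 fold change of −0.11 (SE 0.15, adjusted p 0.927 by edgeR) in D-V against Control. The rows of 3 other ribosomal protein pseudogenes held at most 10.5 counts in a library.

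**Figure D4:**
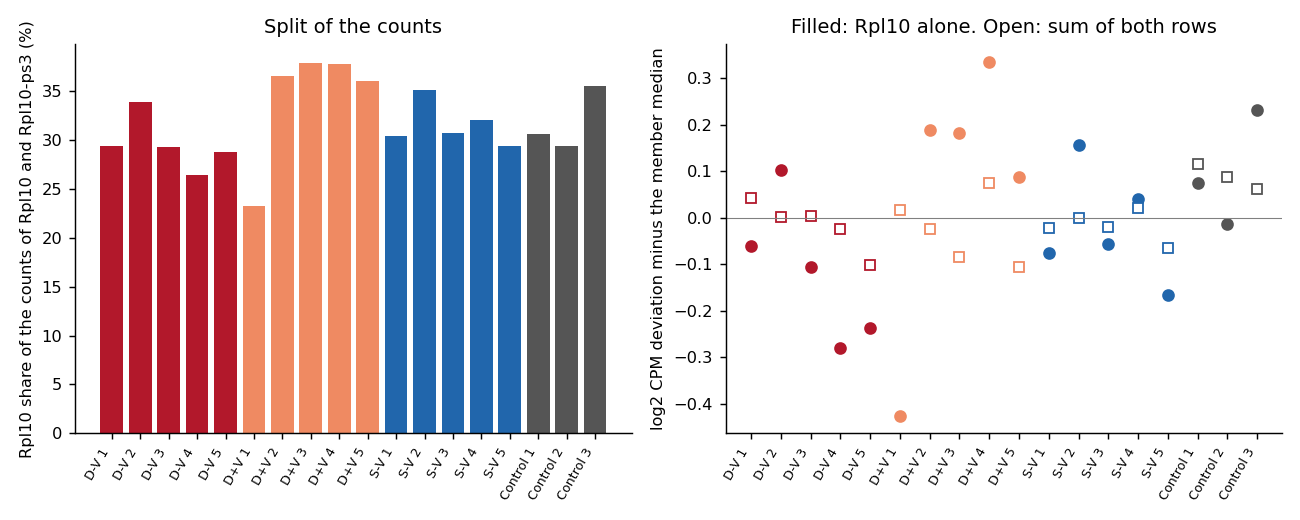
Left, bars give the share of the counts of Rpl10 and Rpl10-ps3 that fell on Rpl10 in each library (%), in the order D-V, D+V, S-V, Control. Right, filled circles give the log2 CPM deviation of Rpl10 minus the member median and open squares the same for the sum of both rows. D+V 1 has the lowest share, at 23.2%, and the open squares lie closer to 0 than the filled circles in most libraries.

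D+V against Control set rotation with free vision beside the blank control. It was the comparison in which 134 of all genes (0.908%) were called, 108 higher and 26 lower. That count of genes was 0 without Control replicate 1, without Control replicate 2, in the fit of only those groups or with each library's trend taken out. It was 1 without the 5 libraries rich in choroid plexus markers, 1288 without D+V replicate 1, 23 to 117 with another D+V library left out and 375 without Control replicate 3. Of the 75 members 0 were called and 0 had an unadjusted p under 0.05, where 17.9% of all genes did. The median log2 fold change was −0.02, against 0.00 over all tested genes, with 27 members positive, where 49.5% of all genes were. The smallest adjusted p was 0.354, for Rpl8 at −0.16 (SE 0.09), a protein beside the peptidyl transferase centre. It was at 336, 309, 263, 245 and 289 CPM in D+V, against 338, 330 and 295 CPM in Control, and the groups overlapped.

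Rpl9 was at −0.13 (SE 0.10) and Rps13 at −0.13 (SE 0.10) in D+V against Control, with Rps7 at 0.14 (SE 0.11), Rpl5 at 0.10 (SE 0.10) and Rpl15 at 0.09 (SE 0.08). No member had groups without overlap, where 3.67% of all genes had none on the higher side and 3.96% on the lower. The member median was 0.04 without D+V replicate 4, with 60 members positive, and −0.09 without D+V replicate 1, with 7 positive. It was −0.05 without the 5 libraries rich in choroid plexus markers, −0.10 by limma voom and 0.02 with each library's trend taken out. These 2 libraries are the lowest and the highest of the group in the plot of members by library.

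S-V against Control set rotation in a single direction without vision beside the blank control. Members lay higher in S-V, with 72 of 75 positive, where 50.6% of all genes were, and a median log2 fold change of 0.12, against 0.00 over all tested genes. Of the members 0 were called (0.0% of all genes) and 5 had an unadjusted p under 0.05, where 13.7% of all genes did. Both the fitted trend (a mean of 0.07 ± 0.04 in S-V and −0.01 ± 0.13 in Control) and the OXPHOS median (0.08 ± 0.07 in S-V and −0.02 ± 0.12 in Control) moved with it (SD, n = 5 and 3). The median was 0.06, with 53 members positive, with each library's trend taken out. It was 0.06 without Control replicate 3 and 0.18 without the 5 libraries rich in choroid plexus markers. The member medians of single libraries overlapped, at 0.00 to 0.24 in S-V and −0.16 to 0.10 in Control. In the fit of only these groups 19 of 75 members had an unadjusted p under 0.05, where 17.8% of all genes did. Without the 5 libraries rich in choroid plexus markers 8 members did, where 12.8% of all genes did.

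Rpl39 had the smallest p of the members in S-V against Control. It was at 33.7, 30.4, 24.9, 23.0 and 29.5 CPM in S-V, against 22.7, 21.8 and 18.4 CPM in Control, a log2 fold change of 0.43 (SE 0.15, adjusted p 0.215 by edgeR). All 5 S-V libraries were above all 3 Control libraries, although S-V 4 was within 1 CPM of Control 1. Rpl5, which binds the 5S ribosomal RNA and, outside the ribosome, the p53 regulator Mdm2, was at 310, 265, 294, 266 and 313 CPM in S-V, against 246, 252 and 230 CPM in Control (log2 0.26, SE 0.10, adjusted p 0.252).

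Rpl39, Rpl5 and Rpl15 were the 3 members with all S-V libraries above all Control libraries, where 6.62% of all genes were, and 0 were on the lower side, against 5.74% of all genes. Rpl15, a core protein of the large subunit, was at 291, 269, 264, 267 and 281 CPM in S-V, against 262, 258 and 239 CPM in Control. Its log2 fold change was 0.12 (SE 0.08). Rps7 was at 0.23 (SE 0.11, adjusted p 0.340) and its groups overlapped. The 3 negative members were Rpl3 at −0.08 (SE 0.08), Rpl8 at −0.07 (SE 0.09) and Rpl10 at −0.01 (SE 0.09). Rpl10 was at 0.02 with a replicate block.

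All 3 rotated groups averaged and set against Control gave a median log2 fold change of 0.02 over the members, against 0.00 over all tested genes, with 46 positive, where 50.5% of all genes were. Of the members 0 were called (0.0% of all genes) and 0 had an unadjusted p under 0.05, where 13.1% of all genes did. The median was −0.01 with library totals alone as scaling and −0.01 without the 5 libraries rich in choroid plexus markers, so no direction is given. Rps29 was at 0.24 (SE 0.18), Rps7 at 0.15 (SE 0.09) and Rpl5 at 0.14 (SE 0.08), with Rpl10 at −0.11 (SE 0.08), Rpl3 at −0.11 (SE 0.07) and Rpl8 at −0.10 (SE 0.07). The smallest adjusted p was 0.489. No member had groups without overlap, where 0.691% of all genes had none on the higher side and 0.359% on the lower.

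**Figure D5:**
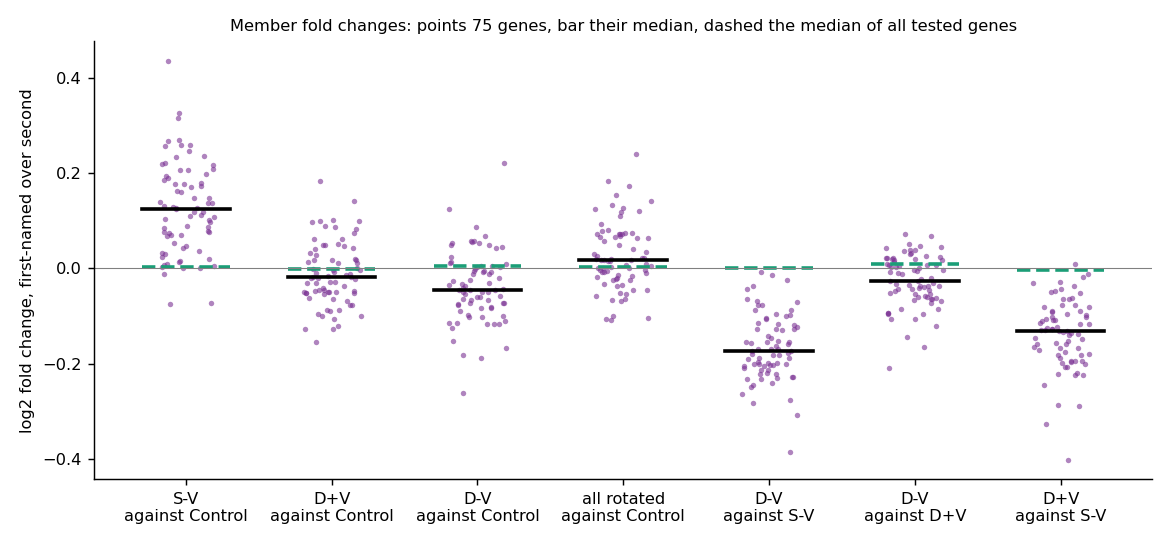
Points are the log2 fold changes of the 75 members in each comparison (y axis, first-named group over the second), solid bars their median and dashed bars the median of all tested genes. In D-V against S-V all 75 points are below 0, and in S-V against Control 72 are above it.

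D-V against S-V held vision covered and varied the kind of rotation, and the Control mean does not enter the contrast, though all 18 libraries share its estimate of spread. All 75 members lay lower in D-V than in S-V, where 49.9% of all genes were positive. The median log2 fold change was −0.17, against 0.00 over all tested genes. The member medians of single libraries overlapped, at −0.24 to 0.12 in D-V and 0.00 to 0.24 in S-V. Members ranged from −0.38 for Rpl39 to −0.01 for Rpl8. None was called (0.0% of all genes), and 18 had an unadjusted p under 0.05, where 6.44% of all genes did. That count was 42 of 75 in the fit of only these groups, with a smallest adjusted p of 0.231 by edgeR, where 9.97% of all genes did. It was 58 without the 5 libraries rich in choroid plexus markers, where 9.02% did, and 53 by limma voom, where 12.6% did. The count of positive members was 0 under each other scaling tried and by DESeq2 and limma voom, and at most 4 in fits that leave out 1 library.

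The size of this difference depended on what was taken out. The median was −0.10, with 5 members positive, with each library's trend on GC and length removed, and −0.33 without the 5 libraries rich in choroid plexus markers. Those 5 include D-V 3 and D-V 4, the D-V libraries with the highest member medians, and S-V 2 and S-V 4, the S-V libraries with the lowest. The fitted trend averaged 0.00 ± 0.14 in D-V and 0.07 ± 0.04 in S-V, and the OXPHOS median −0.01 ± 0.14 in D-V and 0.08 ± 0.07 in S-V (SD, n = 5 each). Their part in the difference was not tested beyond these fits. Choroid plexus markers summed to 147 to 11100 CPM in D-V and 181 to 4308 CPM in S-V, so they overlapped. Red cell markers summed to 1300 to 2060 CPM in D-V and 935 to 1386 CPM in S-V, and microglial markers to 597 to 639 CPM in D-V and 620 to 731 CPM in S-V. The part of these cells in the difference was not tested.

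Rps15a, a small subunit protein, had the smallest p of the members in D-V against S-V. It was at 133, 134, 133, 134 and 125 CPM in D-V, against 162, 148, 146, 151 and 152 CPM in S-V, with no overlap. The log2 fold change was −0.20 (SE 0.05), at an unadjusted p of 0.00067 and an adjusted p of 0.590 by edgeR. No gene had a smaller adjusted p in this comparison, but the adjustment can give several genes the same value. Rps15a is therefore not ranked first of all genes by it. By DESeq2 the smallest adjusted p was 0.067 over the members and 0.021 over all genes. In D+V Rps15a was at 143, 154, 142, 133 and 147 CPM, and in Control at 147, 145 and 133 CPM. Thus 2 of 5 D+V libraries and 1 of 3 Control libraries lay between the highest D-V and the lowest S-V value.

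Rpl34, of the large subunit, was at 74.4, 85.3, 89.4, 88.2 and 76.0 CPM in D-V, against 115, 97.3, 99.6, 91.0 and 109 CPM in S-V, again with no overlap (log2 −0.31, SE 0.10, adjusted p 0.643). Rpl14 was the last of the 3 members without overlap on the lower side, where 0.894% of all genes had none. On the higher side 0 members had none, against 1.15% of all genes. Rpl14 was at 175, 181, 177, 187 and 177 CPM in D-V, against 222, 197, 192, 204 and 209 CPM in S-V (log2 −0.19, SE 0.09, adjusted p 0.751). Rpl10 was at −0.25 (SE 0.08, adjusted p 0.643), and the sum of its pair is given above.

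D+V against S-V differed in the kind of rotation and in vision at once, so the effect of either cannot be told apart. Of the members 1 was positive, where 48.9% of all genes were, and the median was −0.13, against 0.00 over all tested genes. None was called (0.0% of all genes) and 8 had an unadjusted p under 0.05, where 13.0% of all genes did. The member medians of single libraries overlapped, at −0.34 to 0.25 in D+V and 0.00 to 0.24 in S-V. Rpl34 was at 94.9, 94.0, 71.2, 72.1 and 75.2 CPM in D+V, against the S-V values above (log2 −0.33, SE 0.10, adjusted p 0.213). Rpl39 was at 27.6, 23.1, 17.6, 17.0 and 21.9 CPM in D+V (log2 −0.40, SE 0.13, adjusted p 0.238), and Rpl35a, a large subunit protein altered in human Diamond-Blackfan anaemia, at −0.29 (SE 0.11, adjusted p 0.316). D+V 1 and D+V 2 lay within the S-V range for all 3 genes, and the other 3 D+V libraries lay below it.

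This comparison turned on D+V 1. Without it 1455 of 14678 genes (9.91%) were called, and 11 of the 75 members, all lower in D+V, among them Rpl34 at −0.39 (adjusted p 0.0195), Rpl39 at −0.51 (adjusted p 0.0161), Rpl35a at −0.38 (adjusted p 0.0374), Rpl14 at −0.32 (adjusted p 0.00489) and Rpl5 at −0.25 (adjusted p 0.0264) by edgeR. The same 11 were among the 14 that limma voom with quality weights called over all libraries. The member median was −0.21 with D+V replicate 1 left out and −0.07 with D+V replicate 4 left out. The median was −0.23 without the 5 libraries rich in choroid plexus markers, with 29 members at an unadjusted p under 0.05, where 13.1% of all genes were. With each library's GC and length trend taken out it was −0.02 with 29 members positive, where 49.2% of all genes were. The fitted trend averaged −0.06 ± 0.17 in D+V and 0.07 ± 0.04 in S-V, and the OXPHOS median −0.06 ± 0.18 in D+V and 0.08 ± 0.07 in S-V (SD, n = 5 each). No member had groups without overlap, where 0.616% of all genes had none on the higher side and 0.596% on the lower.

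D-V against D+V held the kind of rotation and varied vision. Members had a median of −0.03, against 0.01 over all tested genes, with 29 positive, where 52.3% of all genes were. None was called (0.0% of all genes), and 2 had an unadjusted p under 0.05, where 13.7% of all genes did. They were Rpl10 at −0.21 (SE 0.08, adjusted p 0.255) and Rps15a at −0.12 (SE 0.05, adjusted p 0.278). Rpl7 was at −0.16 (SE 0.11), and on the positive side Rpl8 was at 0.07 (SE 0.07), Rps13 at 0.07 (SE 0.08) and Rpl13 at 0.04 (SE 0.09). With each library's GC and length trend taken out Rpl8 was at −0.05 and Rpl13 at −0.07.

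Without D+V replicate 1 the median of D-V against D+V was 0.07 with 58 members positive, and Rpl10, 1 of the 75 members, was called at −0.26 (adjusted p 0.0431 by edgeR), where 1230 of 14678 genes (8.38%) were called. That library had the lowest Rpl10 share of the pair. Without D+V replicate 4 the median was −0.09 with 3 positive, and without the 5 libraries rich in choroid plexus markers −0.10 with 6 positive. No member had groups without overlap, where 0.637% of all genes had none on the higher side and 0.942% on the lower. The direction of the family between D-V and D+V thus depended on which of these libraries was in the fit.

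The 3 stalk genes, whose proteins form the arm that recruits elongation factors, had SDs of 0.039 (Rplp1), 0.060 (Rplp2) and 0.087 (Rplp0) after the member median was taken off, against 0.072 for the median member. Rplp0 was at 251, 277, 298, 298 and 273 CPM in D-V, 322, 338, 287, 228 and 306 CPM in D+V, 316, 259, 295, 299.7 and 302 CPM in S-V and 313, 296 and 271 CPM in Control. It was the 1 member positive in D+V against S-V, at 0.01 (SE 0.09), a sign that changed with library totals alone as scaling (−0.01). Rplp1 was at 244, 270, 296, 326 and 268 CPM in D-V, 337, 315, 280, 221 and 297 CPM in D+V, 339, 286, 321, 296 and 340 CPM in S-V and 314, 303 and 265 CPM in Control. Rplp2 was at 68.4, 69.0, 72.5, 86.1 and 68.8 CPM in D-V, 84.2, 79.1, 65.3, 59.1 and 70.8 CPM in D+V, 88.3, 74.9, 79.0, 79.8 and 86.4 CPM in S-V and 74.1, 79.2 and 69.6 CPM in Control. For all 3 genes D+V 4 was the lowest of the 18 libraries and the groups overlapped.

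Rps29, Rpl38 and Rps28, 3 of the 5 most independent members, had overlapping groups in every comparison. Rps29 was at 34.7, 35.8, 52.5, 62.7 and 50.5 CPM in D-V, 56.5, 50.9, 42.5, 30.6 and 49.7 CPM in D+V, 65.8, 51.5, 40.2, 41.9 and 52.0 CPM in S-V and 41.2, 45.6 and 34.6 CPM in Control. Rpl38 was at 38.7, 42.1, 52.1, 56.1 and 46.8 CPM in D-V, 56.2, 50.7, 45.2, 34.0 and 46.0 CPM in D+V, 67.3, 57.0, 43.0, 47.5 and 55.7 CPM in S-V and 44.5, 48.5 and 36.7 CPM in Control. Rps28 was at 16.2, 17.0, 22.1, 26.9 and 18.5 CPM in D-V, 25.9, 24.3, 21.4, 14.3 and 21.1 CPM in D+V, 27.8, 23.5, 22.7, 18.6 and 23.7 CPM in S-V and 22.6, 19.0 and 20.3 CPM in Control. All 3 encode very short proteins from short transcripts, of 390, 345 and 271 bases, and all 3 were lowest in D+V 4.

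Members with and without a TOP start at an annotated start were close in every comparison. In D-V against S-V the median log2 fold change was −0.20 for the 13 members with such a start and −0.17 for the other members with a promoter window. In D+V against S-V the medians were −0.18 and −0.13, and in S-V against Control 0.13 and 0.10. Both kinds lay on the same side of 0, and no test was made of the difference. An annotated start a few bases off can put a member with a pyrimidine run among those without a TOP start. Rpl34, whose run spans the annotated start, is counted there. These medians therefore cannot tell what a TOP start itself does.

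Genes of the ribosome or close to it that the naming pattern leaves out lay on the same side as the members where those differed most. Of 13 such genes listed, 12 were in the table and 8 were tested. In D-V against S-V 0 of the 8 were positive, with a median log2 fold change of −0.18, and in S-V against Control 7 of 8 were, with a median of 0.10. None was called in any comparison. They include Rps3a1 and Rpsa of the small subunit, Fau, which encodes a ribosomal protein fused to a ubiquitin-like protein, and the paralogs Rps27l, Rpl22l1, Rpl36al and Rpl7l1.

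Per length, Rpsa averaged 346 CPM per kb, Rps3a1 335 and Fau 282, in the range of the members. The paralogs were lower, at 68.4 CPM per kb for Rpl36al, 45.7 for Rpl22l1, 35.7 for Rpl7l1 and 16.9 for Rps27l, which p53 induces. Rps27l was at 5.55, 6.60, 9.02, 9.76 and 6.81 CPM in D-V, against 11.4, 11.1, 8.83, 9.998 and 9.53 CPM in S-V, and the groups overlapped (log2 −0.44, SE 0.19, adjusted p 0.734). Rpl22l1 was at a log2 fold change of 0.35 (SE 0.15, adjusted p 0.316) in S-V against Control. Rpl10l and Rpl39l, known from testis, Rpl3l, known from heart and skeletal muscle, and Rps27rt had at most a few counts in a library and were not tested.

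Other genes of the translation machinery gave 0 calls in all 7 comparisons. Among 21 further genes known for TOP mRNAs, translation factors for the most part, the median was −0.05 in D-V against S-V and 0.07 in S-V against Control. Their leading genes with all rotated groups averaged against Control were Eif3e, an initiation factor subunit, at 0.17 (SE 0.07), Pabpc1, the poly(A)-binding protein, at 0.15 (SE 0.05), the elongation factor Eef2 at −0.08 (SE 0.07) and Eef1g at −0.07 (SE 0.06). The 29 initiation factor genes had medians of −0.02 in D-V against S-V and 0.06 in S-V against Control. Their leading genes with all rotated groups averaged against Control were Eif3j1 at 0.31 (SE 0.08, adjusted p 0.129), Eif4g2 at 0.18 (SE 0.04, adjusted p 0.138), Eif3d at −0.17 (SE 0.05) and Eif3g at −0.09 (SE 0.07).

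Ribosome biogenesis factors, which process ribosomal RNA and build the subunits, numbered 106 and had medians of −0.05 in D-V against S-V, with 27 positive, and 0.06 in S-V against Control, with 70 positive. With all rotated groups averaged against Control Pno1, which acts on the small subunit precursor, was at 0.36 (SE 0.08, adjusted p 0.110), Noc3l at 0.34 (SE 0.10), Wdr74 at −0.21 (SE 0.08) and Noc4l at −0.18 (SE 0.08). The 32 genes of mTOR signalling were at −0.01 in D-V against S-V and 0.04 in S-V against Control. Their leading genes were Tsc2, an inhibitor of mTOR complex activity, at −0.15 (SE 0.05), Nprl3 of the amino acid sensing branch at −0.16 (SE 0.07), Deptor, an mTOR inhibitor, at 0.38 (SE 0.19) and the S6 kinase gene Rps6kb1 at 0.18 (SE 0.10). Hosts of small nucleolar RNAs were not analysed here.

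The 78 genes of the mitochondrial ribosome, a separate ribosome that translates mitochondrial transcripts, had medians of −0.04 in D-V against S-V, −0.12 in D+V against S-V with 1 positive, and −0.09 in D+V against Control with 15 positive. Of these 0 were called. Mrps22 was at 0.33 (SE 0.11), Mrps31 at 0.27 (SE 0.10), Mrpl10 at −0.19 (SE 0.05, adjusted p 0.130) and Mrps18b at −0.16 (SE 0.09) with all rotated groups averaged against Control. The 81 tested OXPHOS genes were at −0.08 in D-V against S-V with 12 positive, at −0.12 in D+V against S-V with 6 positive, and at 0.11 in S-V against Control with 68 positive. Their leading genes with all rotated groups averaged against Control were Ndufs1 at 0.14 (SE 0.04), Cox7c at 0.17 (SE 0.09), Cox4i2 at −0.63 (SE 0.27) and Ndufv1 at −0.10 (SE 0.06). In D-V against S-V and in D+V against S-V the medians of both of these mitochondrial lists lay on the same side of 0 as that of the cytosolic ribosomal proteins.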

How the data were processed

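The authors deposited estimated counts per gene, 1 column a library, per the file headers. Of the values 7.35% are not whole. Among the member values 15.85% are not whole, spread over 17 of the 75 members, Rpl5 among them. The submitters' processing notes name StringTie 1.3.1, HISAT2, DESeq2 and Bowtie2 2.2.8. No source used here gives the genome build, annotation, strand use or counting options, so reads of overlapping, antisense or near-identical genes cannot be assigned with certainty. Lengths, GC content and promoter windows came from GRCm38.p6 annotation, used by gene, which matched 21973 of the 22063 genes (99.6%).

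Counts were rounded, filtered with filterByExpr (14763 genes with 99.97% of counts kept) and scaled by TMM. All 18 libraries entered a single fit of group means in edgeR 4.0.16 (R 4.3.3), tested by quasi-likelihood, with Benjamini-Hochberg adjustment over all tested genes and calls under 0.05. The common biological variation was 15.4%. Other fits used other scaling, filters, DESeq2 1.42.0, limma 3.58.1, only the groups compared, a replicate block, each library left out, and a smooth GC and length trend taken out of each library. The fit without the 5 libraries rich in choroid plexus markers was added after the data were seen. The edgeR fit was tested on simulated data.

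The members and gene lists were chosen with earlier results of these data known. Named were, in each comparison, the 3 members with the smallest p in each direction, the 6 highest and 4 lowest per length, the 5 most and 3 least independent, the stalk genes, pairs with a near-identical copy, and, of other lists, the 2 leading genes in each direction. Rpl14 and Rpl15, and Rpl35a's and Rpl5's calls in other fits, were named after their values were seen. A gene that the rule selects is not reported here. Counts are not independent molecules, since PCR copies carry no molecular identifiers.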

Additional observations from a re-analysis of the deposited data

Results flagged for a closer look

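Among 93 groups of 5 values checked for a sample far from the others, which chance alone flags in about 5%, 3 stood out. Rplp2 was at 86.1 CPM in D-V 4, with the other 4 D-V libraries between 68.4 and 72.5 CPM. Rps15a was at 125 CPM in D-V 5, with the others between 133 and 134 CPM. Rpl10 took 23.2% of the counts of Rpl10 and its copy in D+V 1, with the other 4 D+V libraries between 36.0% and 37.9%.

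Rps15a also lay on opposite sides of the Control mean in D-V and S-V. Every D-V library was below it and every S-V library above it, with a difference of −0.20 in mean log2 CPM. The direct test of D-V against S-V gave an adjusted p of 0.590 by edgeR, so the difference was not called.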

How the results depend on the processing

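Of the member counts, 2 changed: in D+V against S-V 14 members were called by limma voom (1942 of all genes, 13.2%) and 0 to 11 with a library left out (11 and 1455 genes, 9.91%, without D+V replicate 1), and in D-V against D+V 0 to 1 (1230 genes, 8.38%, without that library). In the other 5 comparisons 0 members were called under every alternative run, where up to 12.7% of all genes were (D+V against Control by limma voom). Without D+V replicate 1, 8.78% of all genes were called in D+V against Control. In D-V against S-V 12 members had an unadjusted p under 0.05 with the replicate block, where 5.7% of all genes did. Without the block 18 members did, where 6.44% of all genes did. The member median of D-V against S-V moved from −0.17 to −0.33 without the 5 libraries rich in choroid plexus markers. In D-V against Control, D+V against Control, all rotated groups averaged against Control and D-V against D+V the median changed sign under some alternatives. With a library left out, the medians ranged from −0.12 to 0.01 in D-V against Control, −0.09 to 0.04 in D+V against Control, 0.06 to 0.18 in S-V against Control, −0.05 to 0.07 for all rotated groups averaged against Control, −0.22 to −0.13 in D-V against S-V, −0.09 to 0.07 in D-V against D+V and −0.21 to −0.07 in D+V against S-V.

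Of 746 alternatives for 37 named members and comparisons, 719 kept direction and side of the threshold, 7 became called and 20 changed sign. The cause was not tested. Rpl10 in S-V against Control was at 0.012 by voom, 0.020 with the replicate block and −0.041 to 0.026 with a library left out. Rpl5 in D+V against Control was at −0.015 by voom and −0.033 with trends taken out. In D-V against D+V with trends taken out, Rpl8 was at −0.049 and Rpl13 at −0.074 (−0.016 to 0.089 with a library left out). Rplp0 in D+V against S-V was at −0.012 with library totals alone, −0.019 by voom, −0.091 without the 5 choroid plexus rich libraries and −0.043 to 0.090 with a library left out. Without those 5, Rpl38 was at −0.026 and Rps29 at −0.0097 in D-V against Control.

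The labels do not say whether replicate numbers pair the samples. Same-numbered libraries of different groups had a mean correlation of deviations of −0.01 over 24 pairs (−0.45 to 0.34). Other pairs had a mean of 0.00 over 96 (−0.40 to 0.65), and these values cannot exclude pairing. With the replicate block 0 members were called, and the member median was −0.17 in D-V against S-V and −0.14 in D+V against S-V. All genes called in D+V against Control then numbered 5. Depth limits little here, as the lowest member count was 260.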
